A study of Mus musculus with 24 samples.

Results

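Lung tissue was profiled in 24 mice, and the 7 libraries described here came from mice that were given lipopolysaccharide (LPS) but whose lungs held little transcript of Cxcl2, the chemokine that draws neutrophils. They were chosen by a measured value, a Cxcl2 level below 10 TPM (a transcript abundance corrected for length), and are 7 of the 20 challenged libraries and of the 24 in all. The other 13 challenged libraries formed the contrast on 1 side and the 4 control libraries on the other.

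All mice were wild-type C57BL/6 of 7 weeks, labelled male. For 28 days, 3 groups of 5 mice drank water with AEAA, prepared from the mugwort Artemisia argyi by aqueous extraction, at 0.5 mg/mL (AEAA_low), 1 mg/mL (AEAA_mid) or 1.5 mg/mL (AEAA_high). On day 29 these mice and 5 mice without extract (LPS) received LPS at 5 mg/kg into the trachea, and all lungs were taken 8 h later. The 4 control mice received saline according to the series' design, although their sample characteristics list the LPS dose as well. No group received the extract without LPS, so the extract without the challenge cannot be seen. Where extract libraries are set against control, extract and challenge come together, and only the LPS group shows the challenge without extract. The titles call the libraries biological replicates and say nothing more of the source of the mice.

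The set held 2 libraries of the LPS group (replicates 2 and 4) and 5 of mice that drank the extract: AEAA_high replicates 1 and 4, AEAA_mid replicates 1 and 4 and AEAA_low replicate 1. Cxcl2 stood at 1.37 TPM in LPS replicate 2, the highest of the 7, at 0.44 TPM in the median library and at 0.09 TPM in LPS replicate 4, the lowest. The nearest library outside the set, LPS replicate 3, had 45.12 TPM, and the other challenged libraries reached 454.09 TPM. In control lungs Cxcl2 lay between 0.06 and 0.27 TPM. These Cxcl2 values set the membership and are a description only.

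Several facts bear on all values. Sequencing depth is unknown, because the deposited table gives TPM without counts. The label of male sex stands against Xist at 25.82 to 95.49 TPM in all 24 libraries and Ddx3y at 0.02 TPM or less. Scgb1a1 alone took 23.2% to 35.45% of all TPM in control libraries and 2.51% to 8.68% in the 7, which lifts all other TPM values in the latter. Levels were therefore divided by a median-of-ratios factor per library (0.652 to 0.814 in control, 0.969 to 1.29 in the 7) and are called scaled TPM. The log2 difference is the mean log2(scaled TPM + 1) of the 7 minus that of the 4 controls. An SE printed with a log2 difference describes the scatter among these libraries only. The 7 were chosen by a readout and come from 4 labelled groups, so they are not replicates of 1 condition. The median log2 difference over 17823 genes was 0.0076 after scaling and 0.504 in the TPM as deposited. The added 1 understates the differences of genes at low levels. In bulk tissue, fewer cells of a type and less RNA per cell cannot be told apart.

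Programmes of stress response, clock and airway cells run through the results. NRF2 is a transcription factor that is released when electrophiles or oxidants modify its repressor KEAP1, and it raises enzymes of glutathione and NADPH supply. ATF4 is translated when the integrated stress response slows general protein synthesis, and it raises genes of amino acid import and synthesis. The circadian clock runs through BMAL1 with CLOCK or NPAS2, which bind E-boxes and drive Per, Cry and Nr1d genes and outputs such as Dbp. Club cells are secretory cells of the airway lining that make secretoglobins and metabolise inhaled chemicals. The chemokines and cytokines of the acute LPS response, by contrast, follow NF-kB, which is set off through the LPS receptor TLR4.

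Since the libraries were chosen by a readout, the difference between the 7 and the controls was not tested. A gene is called higher where all 7 libraries lay above all 4 controls with a log2 difference of 1 or more, and lower in the mirror case. Of 17823 genes 106 were higher (0.595%) and 106 lower (0.595%). Without a minimum difference, 1011 genes lay above (5.67%) and 815 below all controls (4.57%), and in the other 13 challenged libraries 983 genes were higher (5.52%) and 649 lower (3.64%). In single libraries, between 329 (AEAA_high replicate 1) and 650 genes (AEAA_mid replicate 4) stood above all controls by 1 or more, and between 130 (AEAA_high replicate 4) and 715 (LPS replicate 4) stood below. The median over the other 13 libraries was 1382 above and 1059 below.

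The test was made on the labelled groups, whole, with limma: the mean of the LPS, AEAA_low, AEAA_mid and AEAA_high groups minus control, two-sided, with Benjamini-Hochberg adjustment over all genes. It covers the 13 other challenged libraries as well, shares the 4 controls with every comparison here, and so speaks for the challenge as labelled and not for the 7 libraries. At an adjusted p of 0.05, 3542 genes rose (19.9%) and 3205 fell (18%). Every count of list members in this test is to be read beside these shares. Of the 106 higher genes 94 also rose in this test, 68 of them in each of the 4 labelled groups against control, and of the 106 lower genes 99 fell, 83 in each group. The test holds the same 7 libraries and the same controls by which these genes were picked. This overlap is therefore in large part built in and is no separate support. Without Control replicate 1 the test called 2294 genes up and 1907 down, and without AEAA_high replicate 4 the count of lower genes was 173.

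**Figure D1:**
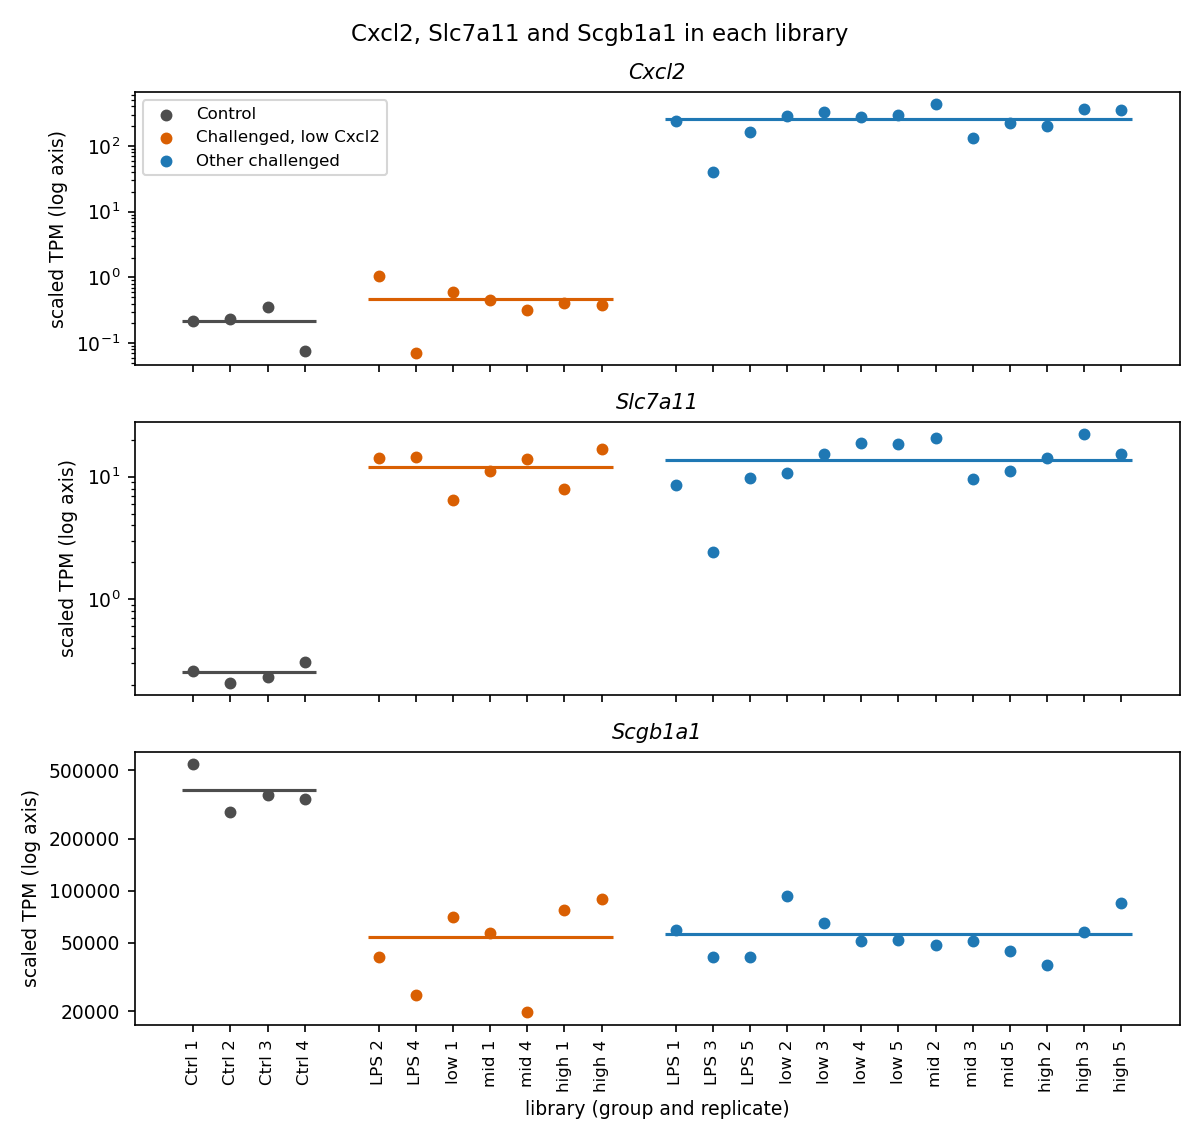
Scaled TPM (log axis) of Cxcl2, Slc7a11 and Scgb1a1 in each of the 24 libraries, with controls in grey, the 7 low-Cxcl2 challenged libraries in orange and the other 13 in blue. Lines mark the arithmetic mean of each set. In Cxcl2, the gene of the rule, the 7 sit at or near control, whereas in Slc7a11 they sit above all controls and in Scgb1a1 below all controls.

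Promoter letters are shown first for some stress genes that hold the binding letters of ATF4 or NRF2 just upstream. Not every gene with a match is printed. The sequences are from RefSeq's promoter table (build GRCm38.p6, 250 bases before to 50 after each start), while the expression table uses GRCm39, so their coordinates do not belong to the expression table. The amino acid response element bound by ATF4 was searched as TGATGNAA on both strands and was found in 5 of 15 genes of the ATF4 list with a promoter (33.3%), against 4.51% of all 27025 genes in the table. Each line gives the promoter, 5′ to 3′ in the direction of the gene, with the matched letters in capitals.
Slc7a11 (chr3:50443628-50443704, minus strand): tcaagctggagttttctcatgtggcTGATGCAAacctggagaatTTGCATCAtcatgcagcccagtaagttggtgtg
Asns (chr6:7693210-7693257, minus strand): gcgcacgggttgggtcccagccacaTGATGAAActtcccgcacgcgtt
Pycr1 (chr11:120643819-120643876, minus strand): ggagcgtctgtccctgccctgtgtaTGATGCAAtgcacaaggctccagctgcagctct
Chac1 (chr2:119351024-119351081, plus strand): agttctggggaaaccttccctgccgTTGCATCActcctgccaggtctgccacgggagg
Nupr1 (chr7:126625548-126625605, minus strand): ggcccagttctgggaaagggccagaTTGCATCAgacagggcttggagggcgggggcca

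The Slc7a11 stretch, from the NRF2 list, holds a match on each strand, beginning 66 and 47 bases before the start. Asns has its match 23 bases before the start. In Chac1 and Nupr1 the match lies on the opposite strand. A match is a string of letters and was not shown to be bound.

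The antioxidant response element bound by NRF2 was searched as TGACNNNGC on both strands, letters that overlap those of the AP-1 site. It was found in 7 of 16 NRF2-list genes with a promoter (43.8%), against 14% of all genes. Clock genes were held in 2 lists: clock repressors and evening-phase outputs (the evening list), and clock activators and morning-phase genes (the morning list). The same letters were found in 4 of 11 evening-list genes (36.4%), 4 of 15 ATF4-list genes (26.7%) and 1 of 4 morning-list genes (25%). They are shown for a pair of NRF2-list genes, where the match lies on the opposite strand.
G6pdx (chrX:74428904-74428962, minus strand): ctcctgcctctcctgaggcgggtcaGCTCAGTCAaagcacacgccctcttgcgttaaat
Txnrd1 (chr10:82859089-82859147, plus strand): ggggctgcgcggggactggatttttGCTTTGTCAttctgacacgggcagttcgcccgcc

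In all, 7 motif patterns were searched and 5 are described; they were chosen after expression values had been seen. An NF-kB pattern was found in 2 of the 16 NRF2-list genes, 1 of the 15 ATF4-list genes and 6.31% of all genes, and a long form of the ROR element in none of the clock, NRF2 or ATF4 genes and 0.459% of all genes. The short ROR form given with the clock genes was taken up after the long form had no match there, and no share was tested.

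Of the 20 measured NRF2 targets, 8 were higher and none lower in the 7 libraries, and 12 lay above all controls. Their median log2 difference was 0.79, beside 0.0076 for all genes, and it was 0.79 in the other 13 libraries too. Slc7a11, which imports cystine for glutathione, stood at 0.261, 0.209, 0.234 and 0.307 scaled TPM in the controls and at 6.45, 13.9 and 16.8 (lowest, median, highest) in the 7. No library of the 7 came near a control. The log2 difference was 3.33 ± 0.18 (SE, n = 7 and 4), and in the labelled test Slc7a11 rose by 3.38 (limma, adjusted p = 5.4e-07).

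Srxn1, which reduces overoxidized peroxiredoxins, lay at 12.5 to 14.3 scaled TPM in control and at 43.8, 72.7 and 96.9 in the 7. The other 13 libraries ranged from 26.4 to 56.5, so the sets of challenged libraries overlapped. Gclc, the catalytic subunit of the enzyme that makes the first bond of glutathione, was at 67.1 to 71.4 in control and at 131, 165 and 228 in the 7. Both rose in the labelled test (1.69, adjusted p = 0.00021 for Srxn1 and 1.00, adjusted p = 0.00288 for Gclc, limma).

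Of the pentose phosphate route, whose first steps supply NADPH, G6pdx, with its promoter printed above, had a log2 difference of 1.20, Pgd of 1.14, Taldo1 of 1.03 and Tkt of -0.02. Gpx2, an epithelial glutathione peroxidase, lay at 44.4 to 76.1 scaled TPM in control and at 96.7 to 222 in the 7. Nqo1, a quinone reductase, differed by 1.18 in the 7 and by 0.29 in the other 13, and missed the threshold in the labelled test (adjusted p = 0.0689). Gclm, the modifier subunit partnering Gclc, lay above all controls in 6 of the 7 and below them in 1. Hmox1, which breaks down haem, differed by 0.88 in the 7 and by 2.54 in the other 13.

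Not every NRF2 target differed. Me1, Ftl1 and Txn1 had log2 differences of 0.12, 0.06 and -0.17, and Osgin1 lay below all controls in 6 of the 7. Of the 20, 12 rose in the labelled test and none fell, or 10 to 13 when single libraries were left out. In the TPM as deposited the counts were 18 above all controls, 13 higher and 18 rising in the test. Without scaling 9826 of all 17823 genes rose in the test and 411 fell, so a rise there says little of the list. The list's median log2 difference was then 1.38, beside 0.504 for all genes, and the counts changed with the scaling.

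The largest increases were in glutathione transferases, which join glutathione to electrophiles. Gsta13 went from 1.87, 0.405, 1.31 and 1.42 scaled TPM in the controls to 75.02, 140 and 343 (lowest, median, highest) in the 7. Gsta1 went from 0.982 to 3.14 in control to 68.4, 130 and 312. The highest value of both was in AEAA_high replicate 4 and the lowest in AEAA_low replicate 1. Log2 differences were 6.15 ± 0.34 and 5.52 ± 0.34 (SE, n = 7 and 4), and both rose in the labelled test (limma, adjusted p = 6.3e-06 and 3.0e-05).

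These copies resemble each other in sequence, and how the authors divided shared reads is not given in the sources used here, so the pair is uncertain as 2 separate genes. In the other 13 libraries Gsta13 ranged from 11.2 to 129. Of the 19 measured transferases of the list 2 were higher, none lower, and the median log2 difference was -0.14. In the labelled test 3 rose and 8 fell (4 without Control replicate 1). In the TPM as deposited 8 rose and none fell, where 9826 of all 17823 genes rose and 411 fell. The list's median was then 0.46, below the 0.504 of all genes, so the turn in direction follows the shift of all genes. Gsta5, which the list did not hold and which was looked up after its values were seen, was also higher, at 0.902, 2.31 and 7.28 scaled TPM in the 7 and at most 0.688 in control, with a log2 difference of 1.23.

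Among ATF4 targets, 8 of 16 measured were higher, none lower, and 12 lay above all controls. The median log2 difference was 1.00 in the 7 and 0.82 in the other 13. Phgdh, the first enzyme of serine synthesis, lay at 5.62 to 6.67 scaled TPM in control and at 16.1, 19.3 and 36.2 in the 7. Nupr1, a small stress-induced nuclear protein, lay at 154 to 216 in control and at 444, 566 and 623 in the 7. For Nupr1 the other 13 libraries ranged from 216 to 448, so their highest value overlapped the lowest of the 7.

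Trib3, a pseudokinase that feeds back on ATF4, was at 3.25 to 5.16 scaled TPM in control, at 10.8, 12.0 and 20.4 in the 7 and at 5.75 to 10.4 in the other 13. Every one of the 7 thus exceeded all other libraries of the series, though the difference between the challenged sets was not tested. Pycr1, which makes proline, was at 1.29 to 1.45 in control and at 2.67, 4.49 and 7.28 in the 7. AEAA_mid replicate 4 was the highest of the 7 for Phgdh, Nupr1, Trib3 and Pycr1.

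Further members by role were the serine and folate enzymes Psat1 (log2 difference 1.23), Mthfd2 (1.25) and Shmt2 (0.73), asparagine synthetase Asns (0.92), the glutathione-degrading Chac1 (1.13), and the amino acid carriers Slc7a5 (1.07) and Slc7a1 (0.67). Atf4 itself differed by -0.07, which says nothing of its protein, since it is regulated in translation. Ddit4, which restrains mTORC1, differed by -0.15. Of the 16, 13 rose in the labelled test and none fell, with 13 to 14 when single libraries were left out, and in the TPM as deposited 15 rose and 13 were higher in the 7. Phgdh rose by 1.67 (limma, adjusted p = 1.2e-06), Nupr1 by 1.11 (adjusted p = 0.00155), Trib3 by 0.92 (adjusted p = 0.00571) and Pycr1 by 1.04 (adjusted p = 0.0004).

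**Figure D2:**
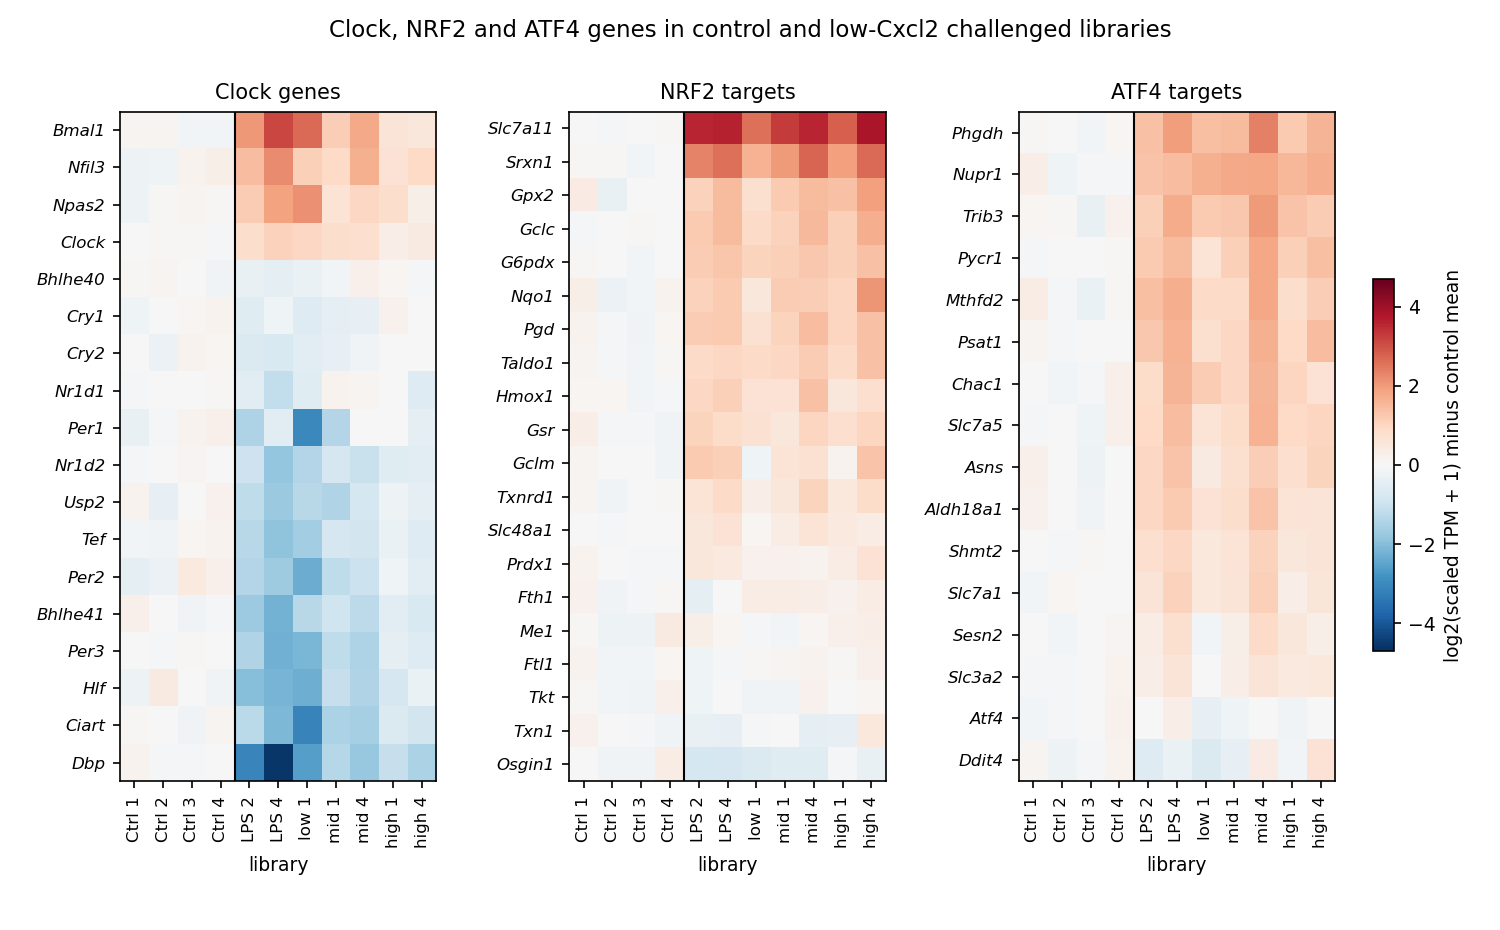
Difference from the control mean, on the log2(scaled TPM + 1) scale, for genes of the clock, NRF2 and ATF4 lists in the 4 control and 7 low-Cxcl2 challenged libraries, 1 column each, with red above and blue below control. Slc7a11, Srxn1 and most ATF4 targets are red in all 7 columns, while clock genes are palest in AEAA_high replicates 1 and 4.

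Of 20 measured heat shock and endoplasmic reticulum chaperones 2 were higher, 6 lay above all controls and none was lower, with a median log2 difference of 0.26. Hspa5, which folds secreted proteins, lay at 190 to 207 scaled TPM in control and at 338, 421 and 606 in the 7, and Sdf2l1, its companion, at 12.7 to 20.7 and at 28.8, 46.5 and 66.3. Both rose in the labelled test (1.29, adjusted p = 5.7e-06 and 1.86, adjusted p = 3.4e-05, limma). In the other 13 libraries Hspa5 lay at 438 to 742. Among the 20 chaperones 12 rose in the labelled test and none fell, where 19.9% of all genes rose and 18% fell.

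Sprr1a and Cldn4 were among the largest increases. Sprr1a, a cornified envelope protein, lay at 1.47, 1.61, 0.377 and 0.640 scaled TPM in the controls and at 21.4, 29.8 and 52.5 (lowest, median, highest) in the 7. Cldn4, a tight junction protein, lay at 8.20 to 10.6 in control and at 56.2, 75.7 and 150 in the 7. In the other 13 libraries Sprr1a reached at most 17.4 and Cldn4 at most 30.2, so for both the 7 exceeded every other library of the series. That gap between the challenged sets was not tested.

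The log2 difference of Cldn4 was 3.12 ± 0.19 (SE, n = 7 and 4) against 0.78 in the other 13. Cldn4 rose by 1.60 in the labelled test (limma, adjusted p = 0.047), passed in none of the 4 labelled groups alone, and lost the call in 13 of the 24 fits that each left out 1 library (adjusted p from 0.0318 to 0.105). Sprr1a rose by 2.73 (adjusted p = 0.00247). Sfn, a 14-3-3 protein of epithelia, lay at 13.1 to 17.8 in control and at 53.4, 73.8 and 114 in the 7. Lgals3, a galactose-binding lectin, lay at 110 to 152 and at 391, 447 and 608. Krt19, a keratin of simple epithelia and mesothelium, lay at 184 to 217 and at 276, 348 and 489, with a log2 difference of 0.89 that did not reach the definition of higher.

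Uchl1, a ubiquitin hydrolase best known from neurons, was at 6.04 to 8.05 scaled TPM in control and at 59.7, 82.7 and 141 in the 7, with the highest value in AEAA_high replicate 4. It rose by 2.99 in the labelled test (limma, adjusted p = 4.6e-08). Spon2, a secreted matrix protein, was at 2.86 to 4.72 in control and at 7.15 to 40.4 in the 7, lowest in AEAA_high replicates 1 and 4. Speer4c1 was at 0.651 to 2.82 and at 9.002 to 19.2. Cdkn1a, which halts the cell cycle, was at 29.9 to 35.0 in control and at 50.9, 88.1 and 164 in the 7, while the other 13 ranged from 91.6 to 274. Myc, a growth-promoting transcription factor, was at 4.92 to 6.51 and at 10.5, 13.1 and 23.1, and Fosl1, an AP-1 subunit, was listed at 0 in a pair of controls and at 0.642 to 3.98 in the 7.

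**Figure D3:**
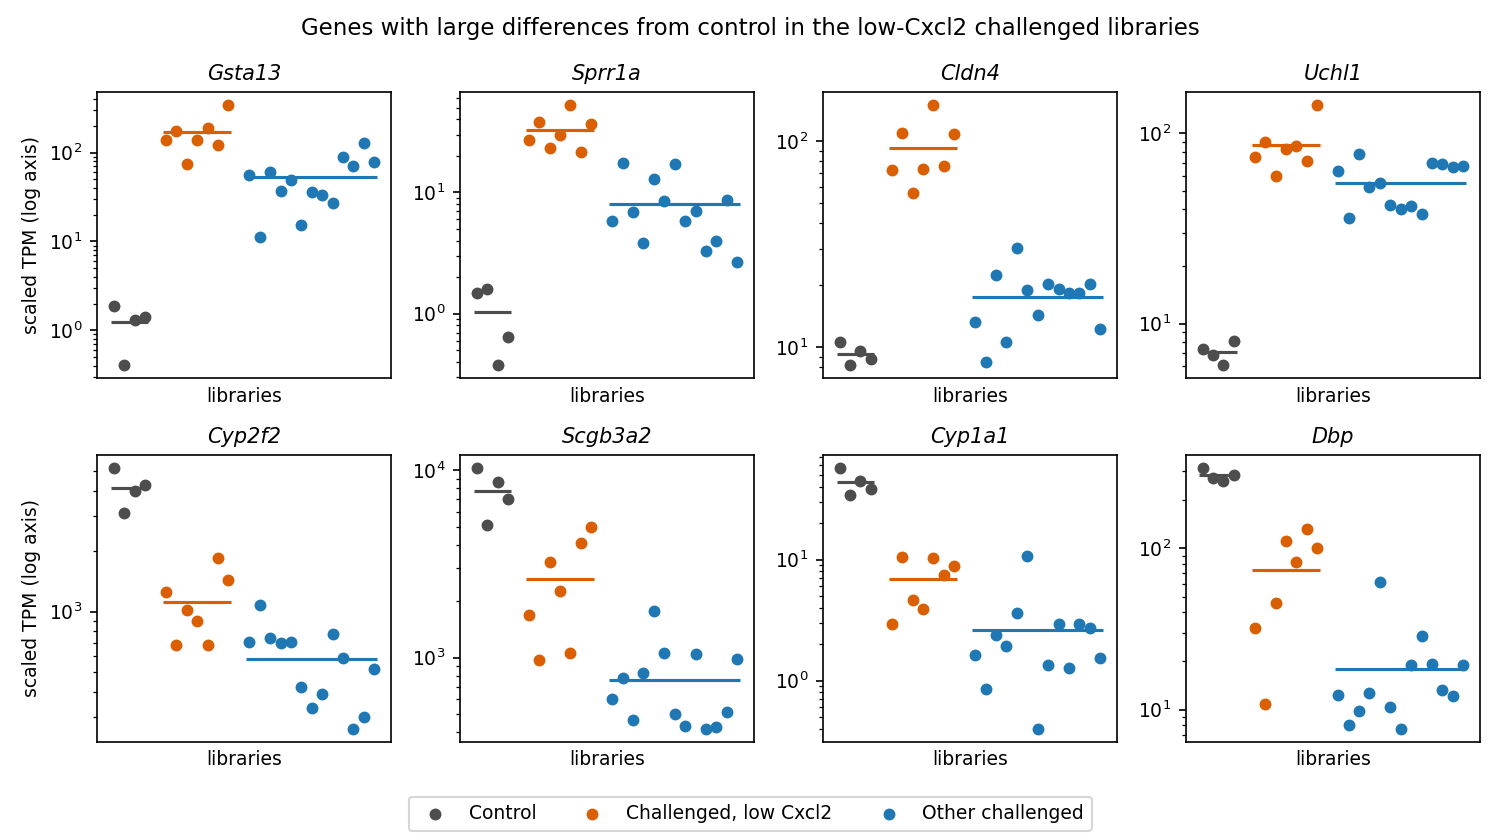
Scaled TPM (log axis) of genes with large differences, 1 point per library in the order of the groups, with controls in grey, the 7 low-Cxcl2 challenged libraries in orange, the other 13 in blue and arithmetic means as lines. Cldn4 and Sprr1a are highest in the 7, whereas for Dbp, Scgb3a2 and Cyp1a1 the mean of the 7 lies between that of control and that of the other 13.

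Of 11 measured club cell and airway secretory genes 4 were lower and none higher. Scgb1a1, the club cell secretoglobin, stood at 543500, 284954, 361496 and 339239 scaled TPM in the controls and at 19717, 56634 and 89532 (lowest, median, highest) in the 7. The log2 difference was -2.96 ± 0.37 (SE, n = 7 and 4) and -2.78 in the other 13, so this loss was of like size in both challenged sets. Scgb1a1 fell by 2.85 in the labelled test (limma, adjusted p = 5.6e-07).

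Cyp2f2, the club cell enzyme that activates naphthalene, lay at 3108 to 5159 scaled TPM in control, at 682, 1014 and 1839 in the 7 and at 262 to 1082 in the other 13. Scgb3a2, a further secretoglobin, lay at 5078 to 10237 in control, at 976, 2274 and 4968 in the 7 and at 418 to 1769 in the other 13. Cbr2, a carbonyl reductase of the same cells, lay at 9421 to 15118, at 2196, 3541 and 6400, and at 1013 to 2583. For each of these genes the 7 stood below all controls, and AEAA_high replicates 1 and 4 were the highest of the 7 or next to it.

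Scgb3a1 lay below all controls in 6 of the 7, and Bpifa1, Bpifb1, Muc5b and Reg3g overlapped the controls. In the labelled test 6 fell and none rose, and in the TPM as deposited 6 fell and 1 rose. The list's median log2 difference per library ran from -2.31 in LPS replicate 4 to -0.14 and -0.08 in AEAA_high replicates 1 and 4, and the last pair lay within the -0.38 to 0.20 of the controls. Vpreb3, Scgb1c1 and Lypd2 also lay below all controls, with log2 differences of -2.20, -2.18 and -2.02.

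Markers of other epithelial cells were examined next. Sftpc, the surfactant protein that marks type II alveolar cells, lay at 43358 to 49672 scaled TPM in control, at 23040, 28280 and 34487 in the 7 and at 6193 to 23478 in the other 13. Sftpb, also of type II cells, lay at 3629 to 3760 in control and at 3026 to 4217 in the 7. Ager, of type I cells, lay at 1958 to 2414 and at 1306 to 2067. None of the 12 type II, 12 type I or 16 ciliated cell genes was lower or higher, with medians of -0.15, -0.07 and -0.31, which turn to 0.46, 0.54 and 0.23 in the TPM as deposited. In the labelled test 12 of the 16 ciliated cell genes fell and none rose (2 fell and 2 rose in the TPM as deposited), 3 type II genes fell and 1 rose (0 and 5), and 2 type I genes fell and none rose (0 and 4). Of all 17823 genes 18% fell and 19.9% rose, and 411 fell and 9826 rose in the TPM as deposited. The falls of type I and type II genes were thus near the share of all genes. The 2 type I calls were 1 without any 1 control, and 1 type I gene rose without LPS replicate 2 or 3 or AEAA_low replicate 4. Sftpc fell by 1.63 (limma, adjusted p = 0.0107), and with TPM left unscaled its adjusted p was 0.0597. Summed ciliated cell genes were at 1637 to 1922 in the 7 and at 1781 to 2493 in control.

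Some enzymes that handle foreign compounds were lower along with the secretory genes. Cyp1a1, the classic target of the aryl hydrocarbon receptor, stood at 56.6, 34.3, 44.3 and 38.3 scaled TPM in the controls and at 2.96, 7.47 and 10.4 in the 7. Ces1d, a carboxylesterase, lay at 683 to 969 and at 281 to 508. Aldh3a1, which clears aldehydes, went the other way, from 19.0 to 30.1 in control to 43.2, 61.1 and 130 in the 7.

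Of 15 such genes 1 was higher and 3 lower in the 7, and in the labelled test 1 rose and 8 fell, or 5 without Control replicate 3 or Control replicate 4. In the TPM as deposited 4 rose and 4 fell, where 9826 of all 17823 genes rose and 411 fell. The split thus turns with the scaling, while Cyp1a1 fell in both fits (-3.37, limma, adjusted p = 6.4e-05 scaled). Paraoxonase Pon1 stood at 77.97 to 162 in control, at 19.7 to 51.6 in the 7 and at 3.98 to 19.9 in the other 13. Asgr1, a glycoprotein receptor, lay below all controls, with a log2 difference of -1.62.

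Several clock genes differed from control in the 7 libraries, in both directions. Bmal1 stood at 1.35, 1.34, 0.974 and 0.947 scaled TPM in the controls and at 2.09, 6.39 and 18.0 (lowest, median, highest) in the 7. The highest value was in LPS replicate 4 and the lowest in AEAA_high replicates 4 and 1. Its log2 difference was 1.71 ± 0.39 (SE, n = 7 and 4) and 2.49 in the other 13, and it rose by 2.22 in the labelled test (limma, adjusted p = 3.3e-05).

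Npas2, which can replace CLOCK, lay at 0.521 to 0.974 scaled TPM in control and at 1.14, 2.54 and 6.86 in the 7, highest in AEAA_low replicate 1. Nfil3, a repressor that competes with DBP, lay at 2.22 to 3.69 in control, at 5.08, 7.39 and 16.7 in the 7 and at 17.3 to 36.9 in the other 13. Clock lay above all controls with a difference of 0.74. Of the 6 genes of the morning list 3 were higher, and in the labelled test 4 rose and 1 fell. That fall was lost without any 1 control, AEAA_low replicate 4, AEAA_mid replicate 2 or 3, or AEAA_high replicate 2, 3 or 5. With TPM left unscaled 5 of the 6 rose and none fell.

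Dbp, the output factor that follows the E-box, stood at 312, 271, 261 and 285 scaled TPM in the controls and at 10.9, 82.3 and 132 in the 7. The lowest was LPS replicate 4, and AEAA_high replicate 1 was the highest. Hlf and Tef, its relatives, had log2 differences of -1.44 and -1.06. Ciart, a repressor of the clock, lay at 26.9 to 32.5 in control and at 2.54, 10.1 and 18.6 in the 7, and Per3, a period gene, at 31.4 to 34.5 and at 6.13, 11.9 and 24.2.

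Promoters of Ciart and Per3 are printed because they hold repeats of letters known from clock targets: 3 E-boxes (CACGTG) in Ciart, beginning 116, 58 and 44 bases before the start, and 2 D-boxes (TTANGTAA, the site of DBP, HLF, TEF and NFIL3) in Per3.
Ciart (chr3:95882242-95882369, minus strand): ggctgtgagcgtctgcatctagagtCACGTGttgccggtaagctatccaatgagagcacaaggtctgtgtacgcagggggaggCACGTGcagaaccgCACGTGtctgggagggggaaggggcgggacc
Per3 (chr4:151044791-151044895, minus strand): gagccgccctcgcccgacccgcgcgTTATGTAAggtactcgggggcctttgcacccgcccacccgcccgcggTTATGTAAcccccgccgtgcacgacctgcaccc

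E-boxes were found in 4 of 11 evening-list genes with a promoter (36.4%) against 8.09% of all genes, and D-boxes in 1 of 11 against 2.72%. E-boxes were also found in 1 of 4 morning-list genes (25%), 2 of 15 ATF4-list genes (13.3%) and none of 16 NRF2-list genes, where D-boxes had no match. The short ROR element, TAGGTCA on either strand, was found in 1 of 4 morning-list genes against 2.97%. It was also found in 1 of 16 NRF2-list genes (6.25%) and in none of the evening or ATF4 lists. These shares were not tested.

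Of 13 measured genes of the evening list 7 were lower and none higher, with a median log2 difference of -1.06 in the 7 and -1.64 in the other 13. Nr1d1, the repressor of Bmal1, differed by -0.36 in the 7 and by -2.18 in the other 13, and Bhlhe40 by -0.15 and 0.92. In the labelled test 12 fell and none rose. In the TPM as deposited 9 fell and 1 rose, and 1 of the 13 was lower in the 7, so that count depends on the scaling. The hour of the day at collection is not given in the labels, and whether controls and challenged mice were killed at the same hour cannot be told apart from the challenge.

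The clock difference varied among the 7 in both directions at once. Genes of the evening list had a median of -1.30 and -1.84 in LPS replicates 2 and 4, -1.63 in AEAA_low replicate 1, -1.09 and -1.01 in AEAA_mid replicates 1 and 4, and -0.31 and -0.49 in AEAA_high replicates 1 and 4. The other 13 libraries ran from -2.29 to -1.26, without the weak values of the AEAA_high pair. By contrast, the NRF2 list stood at 0.52 and 0.93 in AEAA_high replicates 1 and 4 and at 0.93 and 0.94 in LPS replicates 2 and 4, and the ATF4 list at 0.80 and 0.84 beside 0.96 and 1.39. With 1 or 2 libraries of a dose in the set, differences between doses were not tested.

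Inflammatory genes gave the contrast with the 13 other libraries, as the choice by Cxcl2 would fix in part. Of 28 chemokines 2 were higher and 1 lower in the 7, with a median log2 difference of 0.11 against 2.75 in the other 13. Cxcl5, made by epithelium to attract neutrophils, lay at 0.184 to 0.403 scaled TPM in control, at 1.00, 1.52 and 2.89 in the 7 and at 3.36 to 261 in the other 13. Ccl20, which attracts cells through CCR6, lay at 0.273 to 1.19, at 2.64, 3.27 and 5.88, and at 3.25 to 312. In both, the 7 lay above all controls, at a small part of the level of most other challenged libraries.

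Ccl17, a ligand of CCR4, lay at 30.9 to 41.0 scaled TPM in control, at 11.8, 18.8 and 24.5 in the 7 and at 33.6 to 173 in the other 13. It was thus lower in the 7 while the median of the other 13 was above control, and the labelled test, which joins both, gave 0.64 (limma, adjusted p = 0.484). Fabp5, a lipid carrier of alveolar macrophages, lay at 246 to 338 in control, at 75.6, 135 and 180 in the 7 and at 284 to 593 in the other 13 (labelled test -0.12, limma, adjusted p = 0.848). It was the 1 of 17 alveolar macrophage genes that was lower, with none higher and a median log2 difference of 0.26 over the list, from -0.34 in LPS replicate 2 to 0.80 in AEAA_low replicate 1. Of these 17 genes 6 rose in the labelled test and none fell (2, 2, 3 and 2 rose without Control replicates 1, 2, 3 and 4). Of all genes 19.9% rose and 18% fell. Without AEAA_mid replicate 1 or AEAA_mid replicate 4 the difference of Ccl17 no longer met the definition of lower.

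Of 14 cytokines of the LPS response and 23 NF-kB genes none was higher or lower, where 0.595% of all genes were higher. Above all controls lay 1 and 7 members, beside 5.67% of all genes. Medians were 0.12 and 0.25, and 2.19 and 2.30 in the other 13. By library the NF-kB median ran from -0.019 (AEAA_high replicate 4) to 0.544 (LPS replicate 4). The next lowest, AEAA_high replicate 1, was at 0.284, and controls ran from -0.045 to 0.096. Icam1, an adhesion molecule under NF-kB, lay at 167 to 195 scaled TPM in control, at 180, 238 and 280 in the 7 and at 465 to 859 in the other 13. Nfkbia, the NF-kB inhibitor, lay at 134 to 170 and at 94.8 to 162. Interferon-stimulated genes had a median of 0.10 and none of 25 was higher or lower. Serpina3n, an acute-phase protease inhibitor, lay at 32.2 to 39.8, at 73.0, 102 and 160, and at 262 to 884, and with Serpina3m it made up the 2 of 21 acute-phase genes that were higher (1 without Control replicate 2). In the TPM as deposited, 10 NF-kB genes, 6 interferon-stimulated genes, 5 acute-phase genes, 4 chemokines and 1 cytokine were higher and none lower, so these low counts hold after scaling only.

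In the labelled test, which includes the 13 other libraries, 12 of 28 chemokines rose (4, 6, 2 and 4 without Control replicates 1, 2, 3 and 4), 7 of 14 cytokines (3 without any 1 control), 20 of 23 NF-kB genes (10, 13, 10 and 11), 15 of 21 acute-phase genes (9, 8, 7 and 7) and 12 of 25 interferon-stimulated genes (6 without any 1 control). None fell.

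Neutrophil transcripts lay above control in part, most in LPS replicate 2. Retnlg, a resistin-like protein of neutrophils, stood at 21.1, 14.9, 13.4 and 15.3 scaled TPM in the controls and at 25.6, 60.8 and 151 in the 7. Csf3r, the receptor for G-CSF, stood at 4.83 to 6.70 and at 6.79, 16.3 and 48.8, highest in LPS replicate 2 and lowest in AEAA_high replicate 4. Ngp, a granule protein of young neutrophils, stood at 0.215 to 0.884 in control and between 0.930 (AEAA_low replicate 1) and 25.2 (LPS replicate 4). Cd177, a neutrophil surface protein also found on other cells, stood at 3.83 to 6.49 and at 12.1, 23.6 and 29.7.

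Of 23 neutrophil genes 4 were higher and none lower, or 8 without AEAA_high replicate 4 and 8 in the TPM as deposited, and the median log2 difference was 0.85 against 3.62 in the other 13. S100a8 and S100a9 lay above all controls in 5 of the 7. By library the list's median ran from 0.01 in AEAA_high replicate 4 to 1.92 in LPS replicate 2, below the lowest of the other 13, 2.55. In the labelled test 17 rose and none fell (10 without Control replicate 1 and 11 without Control replicate 3), beside 19.9% and 18% of all genes. Cd68, of macrophages, stood at 15.6 to 23.7 and at 28.5, 40.8 and 64.2, and 2 of 21 genes of recruited monocytes were higher (1 without AEAA_mid replicate 4 or Control replicate 4).

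**Figure D4:**
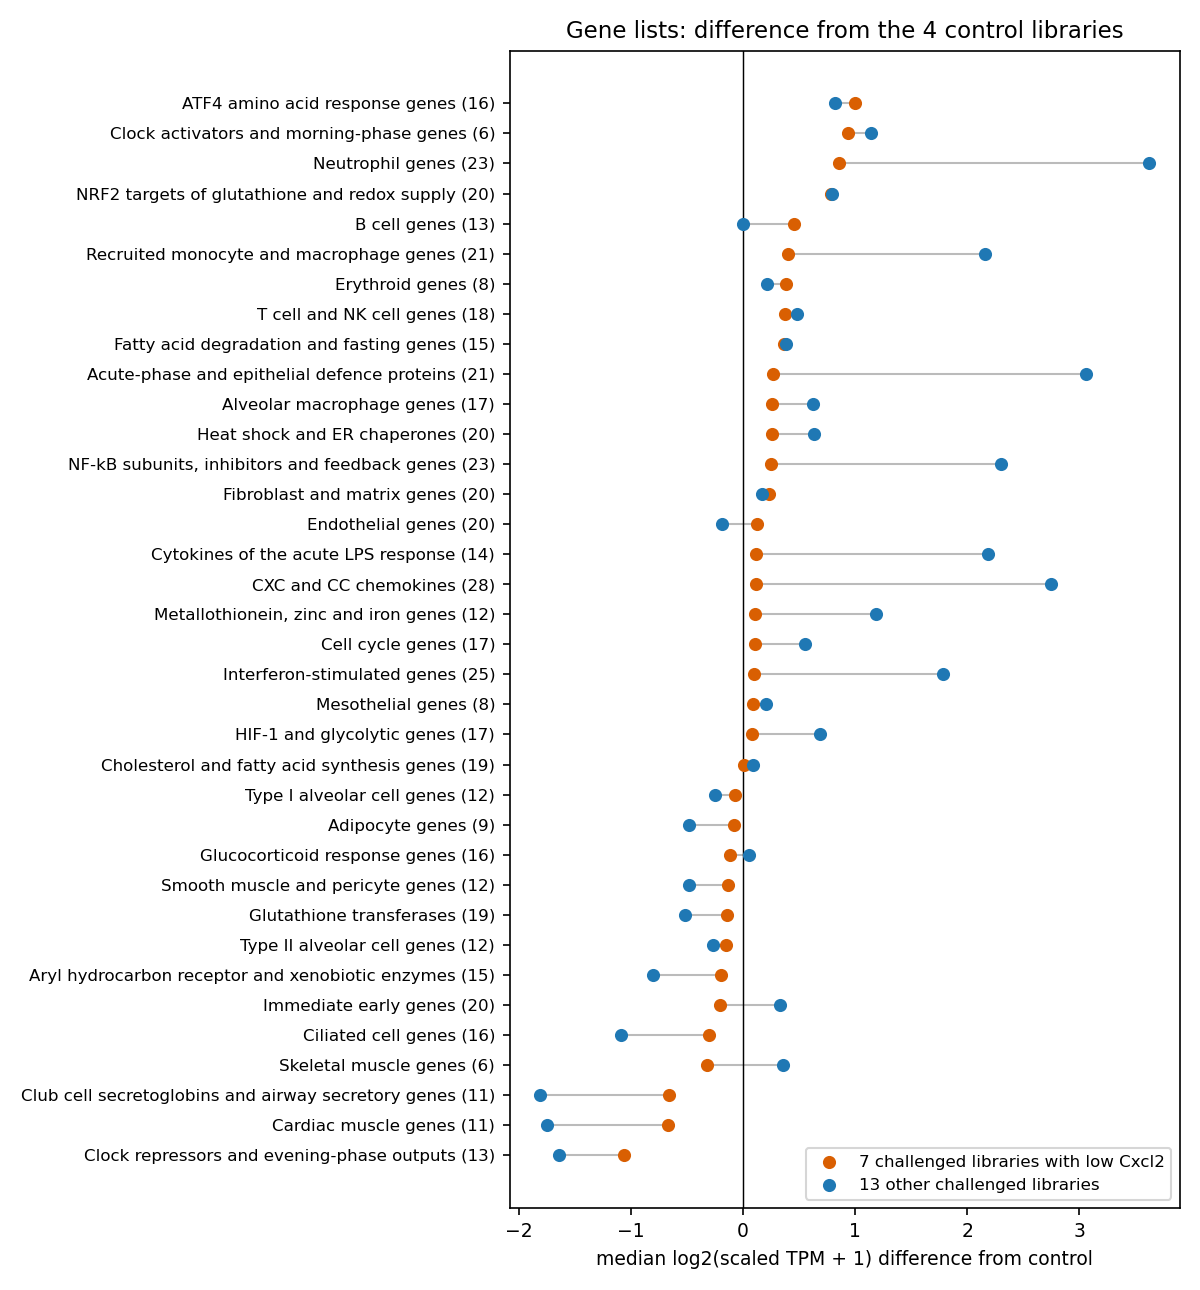
Median log2(scaled TPM + 1) difference from the 4 control libraries over the members of each list, with the number measured in brackets, for the 7 low-Cxcl2 challenged libraries (orange) and the other 13 (blue). Both sets use the same controls. The NRF2 and ATF4 lists lie close together in both sets, while chemokine, cytokine, NF-kB, acute-phase and neutrophil lists lie below 1 in the 7 and above 2 in the other 13.

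Marker lists of other cells were read beside these changes. None of the 18 T and NK cell, 13 B cell or 20 endothelial genes was higher or lower, with medians of 0.37, 0.45 and 0.12. Summed neutrophil genes were at 6024 to 9175 scaled TPM in the 7 and at 7236 to 7983 in control. Summed genes of cardiac muscle, which also sheathes lung veins, ran from 330 to 2636 in the 7 and from 1100 to 2103 in control, with none of the 11 higher or lower. The defining markers Scgb1a1, Sftpc, Ager and Pecam1 were present in all 24 libraries at 19717 scaled TPM or more, 6193 or more, 1214 or more and 234 or more. Their part in the differences above was not tested.

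Lists of metabolism came last. Of 17 glycolytic, 19 lipid synthesis, 15 fatty acid degradation and 12 metal-handling genes none was higher or lower, beside 0.595% of all genes each way. In the fatty acid list 6 lay above all controls, where 5.67% of all genes did. Among them were Cd36, a fatty acid carrier (439 to 513 in control and 580 to 796 scaled TPM in the 7), and Ucp2, a mitochondrial carrier (309 to 341 and 370 to 910). The median of the fatty acid list ran from 0.166 (LPS replicate 4) to 0.765 (AEAA_high replicate 4), and from -0.066 to 0.095 in control. Fth1, the ferritin heavy chain, lay at 3283 to 4210 in control, at 2787, 4561 and 4747 in the 7 and at 8399 to 27589 in the other 13, so the 7 overlapped with control. In the TPM as deposited 5 of the fatty acid list, 5 of the metal list and 1 glycolytic gene were higher. Over all 106 higher genes the difference exceeded that of the other 13 in 61, and over the 106 lower genes in 28. The 7 and the 13 share the controls, and these counts were not tested.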

How the data were processed

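Total RNA of lung tissue, freed of ribosomal RNA, was read in pairs of 150 bases. The authors deposited 1 table of TPM per gene for 24 libraries, each column adding up to 1000000, and the submitters' processing notes name HISAT2, StringTie, RSEM, DESeq2 and build GRCm39 without versions. TPM keeps no depth, so no count test or counting interval was possible.

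TPM was divided by median-of-ratios factors taken over the 18673 genes above 0 in every library, and log2(scaled TPM + 1) was analysed. Genes at 1 TPM or more in at least 4 libraries were kept, 17823 of 78298. With the 4 labelled challenged groups against control, limma 3.58.1 (R 4.3.3, trend and robust prior, 1 mean per group, all 24 libraries) was run and tested on simulated data. The low-Cxcl2 libraries were described without a test. The members, the gene lists and the motifs were chosen with earlier results of these data known. Descriptions used Python 3.11.15 with pandas 2.3.3.

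Genes were named by a rule: with a proper symbol, a mean of 5 TPM or more over the 11 libraries and no overlap with control, the 12 largest increases and 12 largest decreases, and in each list up to 4 members that were higher or lower, or the 2 most abundant where there were none. Members named beyond these, such as Nqo1, Gclm, Tkt and Nr1d1, were chosen after their values were seen. P-values set the difference between group means against the spread of libraries within the labelled groups. Each challenged group holds low-Cxcl2 and other libraries, so that spread includes the difference between them. Replicate numbers recur across groups, but nothing in the labels ties them, and they were not used as pairs. The alternatives were other scalings, filters, pseudocounts and set definitions, a replicate block, quality weights and leaving out each library. Values of some single list members are not reported here, while the list counts include them.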

Additional observations from a re-analysis of the deposited data

Results flagged for a closer look

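In 190 groups of values (4 controls or 7 low-Cxcl2 libraries) over the named genes, 7 held a library that stood far from the nearest other by Dixon's criterion, where chance alone gives about 1 in 20 groups. In the low-Cxcl2 set these were Uchl1 in AEAA_high replicate 4 at 141.05 scaled TPM (next 90.4), Vcan, a matrix proteoglycan, in AEAA_mid replicate 4 at 6.1456 (next 4.25), Gzma, a granzyme of NK and T cells, in LPS replicate 2 at 126.87 (next 57.0), and Cd79b, of the B cell receptor, in AEAA_low replicate 1 at 60.547 (next 42.7). Among controls they were Tcf7, a T cell factor, in Control replicate 2 at 24.987 (next 16.6), Acta2, of smooth muscle, in Control replicate 1 at 399.49 (next 250), and Myl7, of atrial muscle, in Control replicate 4 at 662.61 (next 349).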

How the results depend on the processing

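In the TPM as deposited, 899 genes were higher and 21 lower in the low-Cxcl2 set, and the labelled limma test called 9826 up and 411 down. The share of higher calls thus moved with the scaling, since all genes shifted. A pseudocount of 0.1 gave 193 higher genes, the LPS members alone 309 higher and 519 lower, no minimum difference 1011 and 815, and a difference of 2 or more 13 and 18. For the labelled test, quality weights gave 5622 up and 5106 down, and a fold change beyond 1 on the log2 scale gave 663 and 428. With each library left out in turn, the set's counts ran from 96 to 154 higher and from 89 to 173 lower, and the test's from 2294 to 3965 up and from 1907 to 3568 down. The replicate block gave 3181 up and 2834 down. Same-numbered libraries of different groups correlated at 0.0782 on average (46 pairs, -0.457 to 0.651), and 8 of 24 libraries correlated best with their own number, so the numbers do not pair them. Upper-quartile scaling, the filters and the other set definitions kept each count within 1.5 times. Of 1824 named gene differences under 19 alternatives, 1785 kept their sign and no gene that was higher or lower changed it. In settings that only left out libraries, the latter was fixed by the definition of higher and lower. The filters left the values of a gene as they were, and the pseudocount kept the order of its libraries. Only the other scalings could thus have shown a change. Depth is unknown.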
